A study of Rattus norvegicus with 6 samples.

Results

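A set of 5 genes that mark the mesothelium, the sheet of flat cells that covers the outer surface of the lung, was followed in lung RNA of rats with and without pulmonary fibrosis. The genes were Msln, Upk3b, Lrrn4, Wt1 and Calb2, taken by exact gene name from the table of linear RNAs. All 5 names were found, among 21655 gene names, and they covered 7 of the 70376 transcripts. Sprague-Dawley rats 7 weeks old received bleomycin once through the trachea at 7 mg/kg (PF model) or saline (control), and the lungs were taken on day 28. Each group held 3 lungs with 1 library per lung, made from RNA of lung tissue after depletion of rRNA. Bleomycin is a DNA-damaging drug, and given through the trachea it injures the airspaces first. Nothing in the study's methods tells how much of the pleural surface a specimen held. No label marks a batch. The p-values of group differences weigh them against the spread between lungs, in the limma test with variances moderated over all genes.

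Mesothelial cells secrete lubricating fluid, carry many microvilli and are held together by junctions, and they line the chest cavity, the abdomen and the heart sac as well as the lung. Under injury and TGF-beta they are known to lose these features and to take on traits of fibroblasts. Their markers serve very different ends. Msln encodes mesothelin, a glycoprotein anchored in the outer membrane. Upk3b encodes a uroplakin, a membrane protein related to those of the bladder lining. Lrrn4 encodes a membrane protein with leucine-rich repeats. Wt1 encodes a zinc finger transcription factor of the embryonic mesothelium, kidney and gonad. Calb2 encodes calretinin, a calcium-binding protein also found in neurons.

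The rows of the table place Msln on the minus strand of chromosome 10 (15119663 to 15125414), Upk3b on the minus strand of chromosome 12 (23674666 to 23682381), Lrrn4 on the minus strand of chromosome 3 (125523781 to 125533600), Wt1 on the plus strand of chromosome 3 (95133713 to 95180564) and Calb2 on the plus strand of chromosome 19 (41482728 to 41509658). The build of these positions is not given in the sources used here. No transcript of another name overlapped any of the 5 genes. Of the 5216 circRNAs deposited for these libraries, 0 had one of the 5 as host gene. Upk3b, Lrrn4 and Wt1 were highest in the same lungs. Of these, the start region of Wt1 is described below without its sequence, and the start regions of Upk3b and Lrrn4 are shown. They are the 250 bases before the start of transcription as RefSeq gives them on GRCr8, a build whose positions differ from those in the files, written in the direction of the gene. Capitals mark a match to a searched motif. The Upk3b region lies at chr12:26274241-26274490 and the Lrrn4 region at chr3:140603987-140604236, both on the minus strand.
Upk3b: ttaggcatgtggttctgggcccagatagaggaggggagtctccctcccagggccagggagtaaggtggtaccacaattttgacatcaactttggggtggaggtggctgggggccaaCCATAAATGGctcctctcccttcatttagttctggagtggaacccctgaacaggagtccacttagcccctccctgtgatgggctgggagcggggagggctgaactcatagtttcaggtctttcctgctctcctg
Lrrn4: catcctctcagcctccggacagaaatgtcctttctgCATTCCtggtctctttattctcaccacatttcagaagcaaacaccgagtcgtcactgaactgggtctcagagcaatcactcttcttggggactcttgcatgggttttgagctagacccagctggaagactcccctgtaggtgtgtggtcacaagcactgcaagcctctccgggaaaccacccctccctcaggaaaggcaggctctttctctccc

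In all, 3 motifs were searched on both strands in the same 250 bases of 33469 promoters. They were GGAATG, the letters bound by TEAD factors, the CArG box, bound by serum response factor, and GNGTGGGNG, bound by WT1 and the EGR factors. In Upk3b a CArG box spanned bases -134 to -125 before the start, and this motif was present in 1.5% of all promoters. In Lrrn4 the GGAATG motif lay on the opposite strand, as CATTCC, at bases -214 to -209, and it was present in 12.1% of all promoters. GNGTGGGNG, present in 11.3% of promoters, was in neither region. The Wt1 region held none of the 3 motifs in this window. The GC content was 56.4% in Upk3b, 53.2% in Lrrn4 and 71.6% in Wt1, against a median of 51.2% over all promoters. Msln and Calb2 had no entry.

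Levels are given as FPKM, fragments scaled by the length of the transcript and by the depth of the library, summed over the transcripts of a gene. Being scaled by length, the levels of genes can be set side by side. The estimated reads per library, from the deposited coverage, lay between 35778631 and 41112682. By their mean over the 6 libraries the order was Msln (4.61 FPKM), Upk3b (2.56 FPKM), Lrrn4 (1.72 FPKM), Wt1 (0.0713 FPKM) and Calb2 (0.0103 FPKM). The first 3 overlapped in their ranges. Msln exceeded Upk3b in 5 of 6 libraries and Upk3b exceeded Lrrn4 in 5 of 6. The place of Upk3b above Lrrn4 rests on an unannotated single exon, described with the transcripts, that made up 1.36 of its 2.56 FPKM. The annotated Upk3b transcript alone had a mean of 1.20 FPKM and lay below Lrrn4 in 6 of 6 libraries. Wt1 stood apart from these, since its highest value (0.155 FPKM) lay under the lowest value of Lrrn4 (0.812 FPKM). Thus 3 of the 5 markers were detected at low levels, and 2 defining markers, Wt1 and Calb2, were close to 0 in these lungs.

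**Figure D1:**
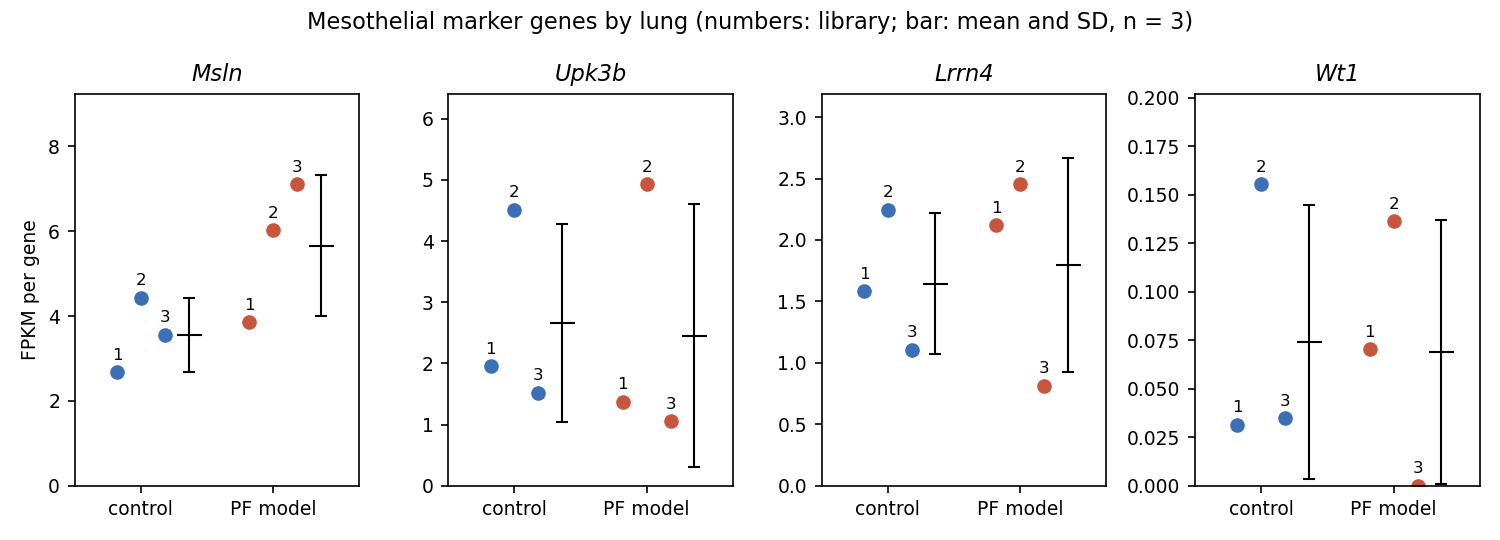
FPKM per gene of Msln, Upk3b, Lrrn4 and Wt1 in each lung (points, numbered by library, control in blue and PF model in red), with the mean and SD of 3 lungs per group as a bar. Each panel has its own axis from 0. Upk3b, Lrrn4 and Wt1 were highest in library 2 of both groups, while Msln reached 7.11 FPKM in PF model 3.

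Msln was the most abundant marker. In control 1, 2 and 3 its level was 2.67, 4.43 and 3.56 FPKM. In PF model 1, 2 and 3 it was 3.85, 6.02 and 7.11 FPKM. PF model 2 and 3 lay above every control lung, and PF model 1 lay within the control range. The mean was 3.55 ± 0.879 FPKM in control and 5.66 ± 1.66 FPKM in PF model lungs (SD, n = 3 each), a ratio of 1.59. In RNA from whole tissue, a change in the number of mesothelial cells and a change in RNA per cell, such as fewer cells and less RNA per cell, cannot be told apart. On the log2(FPKM + 1) scale, which understates the change of low genes, the difference was 0.53 (SE 0.24, 95% interval -0.04 to 1.11), with an adjusted p = 0.933 by limma. The exact permutation test over the 6 lungs gave p = 0.2, where 3 against 3 lungs allow no p under 0.1. The higher mean was therefore not separated from the spread between lungs. Leaving out PF model 3, the difference was 0.38 (adjusted p = 0.983), and leaving out PF model 1 it was 0.75 (adjusted p = 0.924).

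Upk3b was high in 1 lung of each group. Its level was 1.95, 4.51 and 1.52 FPKM in control 1, 2 and 3. In PF model 1, 2 and 3 it was 1.37, 4.93 and 1.05 FPKM. Control 2 and PF model 2 were far above the other 4 lungs, which all lay under 2 FPKM. The mean was 2.66 ± 1.62 FPKM in control and 2.45 ± 2.15 FPKM in PF model lungs (SD, n = 3 each). The difference was -0.17 on the log2(FPKM + 1) scale (SE 0.48, 95% interval -1.32 to 0.98, adjusted p = 0.983). Its sign turned when control 2 was left out (0.17), and likewise without PF model 1 (0.02) or PF model 3 (0.12).

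Lrrn4 gave 1.58, 2.24 and 1.11 FPKM in control 1, 2 and 3. In PF model 1, 2 and 3 it gave 2.12, 2.46 and 0.812 FPKM. The groups overlapped, and the lowest and the highest value were both PF model lungs. The mean was 1.64 ± 0.572 FPKM against 1.80 ± 0.869 FPKM (SD, n = 3 each), and the difference was 0.05 (SE 0.29, 95% interval -0.64 to 0.74, adjusted p = 0.995). Without control 3 (-0.10), PF model 1 (-0.06) or PF model 2 (-0.13) the sign turned.

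Wt1 gave 0.0314, 0.155 and 0.0348 FPKM in control 1, 2 and 3, from an estimated 4, 17 and 4 reads. In PF model 1 and 2 it gave 0.0703 and 0.136 FPKM, from an estimated 9 and 16 reads, and in PF model 3 it was listed at 0. Library 2 was the highest of either group. The difference was -0.01 (SE 0.07, 95% interval -0.18 to 0.17, adjusted p = 0.997), a value set by a few reads per lung. Calb2 was listed at 0 in 5 libraries and at 0.0618 FPKM in control 2, from an estimated 4 reads. It was above 0 in fewer than 3 libraries, so it was not tested, and a level of Calb2 in either group was not measurable at this depth. The housekeeping genes Actb, Gapdh, Eef1a1, Hprt1 and Tbp were above 0 in every library.

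A gene was called changed where the unadjusted limma p was at most 0.05 and the log2 ratio of the group means was at least 1 in size. Of the 5 markers 4 were tested and 0 were called, against 298 of 19645 genes tested (1.52%). Of all genes called, 130 were higher in PF model lungs (0.662% of those tested) and 168 were lower (0.855%). After scaling to TPM over all transcripts the split was 196 higher and 141 lower, and 0 markers were called. At an unadjusted p of at most 0.05 alone 0 markers passed, against 4.91% of all genes, and 2 genes in all (0.0102%) reached an adjusted p under 0.05. The 4 tested markers were divided evenly in sign, 2 higher and 2 lower, with a median difference of 0.02 against -0.01 over all genes. The intervals of Upk3b and Lrrn4 include changes of more than 0.6 on the log2 scale in either direction, and no lack of change was shown.

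**Figure D2:**
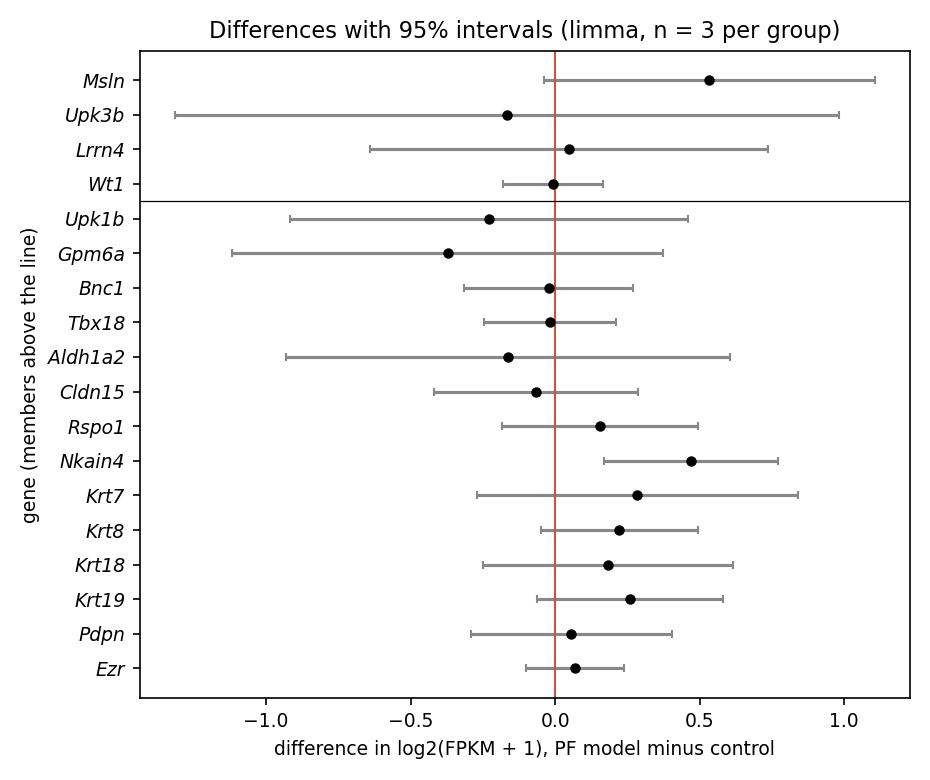
Differences in log2(FPKM + 1), PF model minus control, with 95% intervals from limma (n = 3 lungs per group) for the 4 tested markers above the line and 14 further mesothelial genes below it. The red line marks no difference. Only the interval of Nkain4 (0.17 to 0.77) leaves out 0, and that of Msln runs from -0.04 to 1.11.

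The transcripts of Msln behaved less evenly than its sum. The annotated transcript, ENSRNOT00000026395, has 16 exons and 2183 bases. In control 1, 2 and 3 it had 0.623, 4.43 and 0 FPKM, and in PF model 1, 2 and 3 it had 2.42, 5.57 and 7.10 FPKM. Another transcript, assembled by the authors and named MSTRG.4921.2, shares splice junctions with the first but has 15 exons and 2362 bases. It had 2.05, 0.00284 and 3.56 FPKM in control lungs and 1.43, 0.452 and 0.0190 FPKM in PF model lungs, in the same order. The assembled form was thus lowest in the 3 lungs where the annotated form was highest, control 2, PF model 2 and PF model 3, and it was the only form in control 3. The annotated form made up 23.3%, 99.9% and 0% of Msln in control 1, 2 and 3 and 63.0%, 92.5% and 99.7% in PF model 1, 2 and 3.

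**Figure D3:**
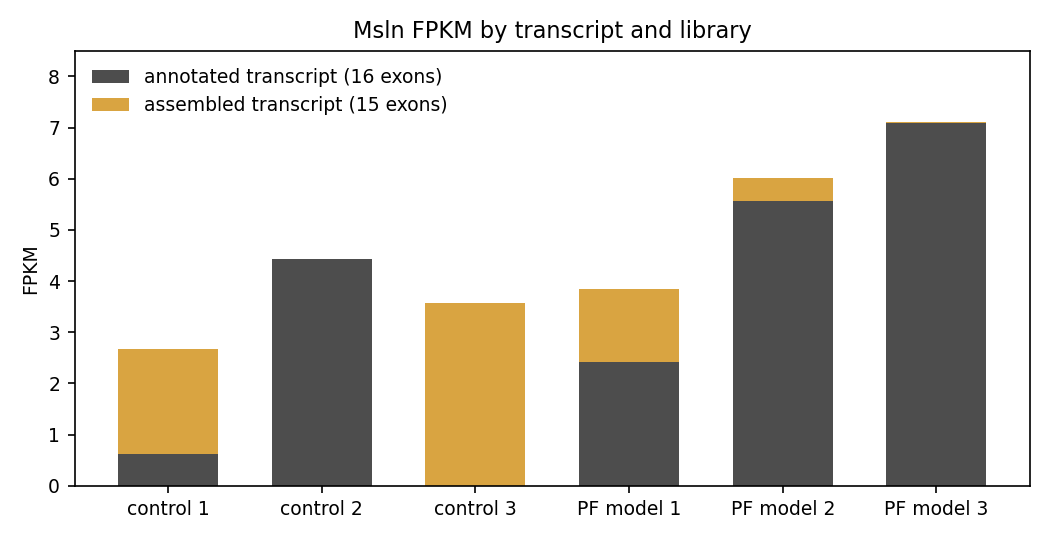
FPKM of the annotated Msln transcript with 16 exons (dark) and of the assembled transcript with 15 exons (yellow), stacked for each of the 6 libraries. Control 3 held only the assembled form (3.56 FPKM), and control 2 and PF model 3 held almost only the annotated form (4.43 and 7.10 FPKM).

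The difference of the annotated Msln transcript was 1.46 (SE 0.69, 95% interval -0.25 to 3.16, adjusted p = 0.945) and that of the assembled one was -0.65 (SE 0.64, 95% interval -2.23 to 0.92, adjusted p = 0.945). Neither was called, against 2.98% of the 64867 transcripts tested. None of the 6 tested marker transcripts reached an unadjusted p of at most 0.05, against 4.53% of all transcripts, or an adjusted p under 0.05, against 0.0277%. For both Msln transcripts the unadjusted outcome changed when control 2 was left out. The annotated one then reached 2.15 (limma, unadjusted p = 0.0061, adjusted p = 0.769). The assembled one reached -1.28 (limma, unadjusted p = 0.035, adjusted p = 0.952). Both then passed the rule for a call, and neither passed after adjustment. The share of all transcripts called without control 2 is not given here. Both rows divide the same reads, so they are not separate results. The division of reads between overlapping forms was set by the authors' estimation. Msln as a whole had an estimated 288 to 714 reads per library. Its summed FPKM also depends on that division, since FPKM is scaled by length and the forms differ in length. With sums weighted by transcript length the difference of Msln was 0.42 (limma, adjusted p = 0.928).

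Upk3b also had 2 rows. The annotated transcript, ENSRNOT00000037639 with 6 exons and 1189 bases, had 0.871, 2.15 and 0.702 FPKM in control 1, 2 and 3 and 0.491, 2.39 and 0.576 FPKM in PF model 1, 2 and 3. The other row, MSTRG.8947.1, was a single exon of 1413 bases on the same strand, 73 bases from the annotated one, with 1.08, 2.36 and 0.815 FPKM in control and 0.883, 2.54 and 0.476 FPKM in PF model lungs. Both rows were highest in library 2 of either group. On the minus strand the single exon lies just past the 3' end of the annotated transcript. Whether both rows are parts of the same RNA was not tested, so they are not separate evidence of the pattern. Their differences were -0.11 (adjusted p = 0.987) for the annotated row and -0.12 (adjusted p = 0.984) for the single exon. Lrrn4, Wt1 and Calb2 had 1 annotated transcript each (ENSRNOT00000040802 with 4 exons, ENSRNOT00000067940 with 10 exons and ENSRNOT00000022943 with 11 exons).

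The rank of the lungs was a pattern noticed after the values were seen, and it was not tested. Of the 4 tested markers 3, namely Upk3b, Wt1 and Lrrn4, had their highest value of each group in library 2, as did 8.39% of all genes. Relative to the mean of the other control lungs, control 2 had 2.60 times the FPKM of Upk3b, 4.70 times that of Wt1, 1.67 times that of Lrrn4 and 1.42 times that of Msln. PF model 2 had 4.07, 3.88, 1.67 and 1.10 times the mean of the other PF model lungs for the same genes. Over all genes with a mean of at least 1 FPKM, the median of these ratios was 0.975 and 0.963. The shared number does not mark a pairing of lungs in the labels. Control 2 and PF model 2 had the lowest coverage per FPKM (6.39 and 6.60, against 6.90 to 7.33 in the other libraries), and genes with names of small RNAs held 44.0% and 38.7% of their FPKM, against 41.2% to 49.0% in the others. The part of these properties in the marker levels was not tested. Leaving out both libraries left Msln at 0.62 (adjusted p = 0.885) and 0 markers called.

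The sum of the 5 markers followed the same lungs, with 6.24, 11.4 and 6.22 FPKM in control 1, 2 and 3 and 7.42, 13.5 and 8.98 FPKM in PF model 1, 2 and 3. Msln made up 42.8%, 38.9% and 57.3% of this sum in control lungs and 51.9%, 44.4% and 79.2% in PF model lungs. PF model 3 thus combined the highest Msln with the lowest Upk3b and Lrrn4 and no Wt1. Its ratio of Msln to Upk3b was 6.76, against 0.982 to 2.80 in the other 5 lungs. The same library stood apart in cardiac muscle markers (summed 12.4 FPKM, against 0.553 to 0.907 in control and 0.725 to 0.801 in the other PF model lungs), of which Myh6, a myosin of heart atria, had 5.11 FPKM there, 0.0339 FPKM in PF model 2 and was listed at 0 in the other 4. It also held 95.8 FPKM of Bpifa1, a secreted protein of the upper airways chosen after its values were seen, against 0.135 FPKM in control 3 and 0 in the other 4. None of the 5 cardiac markers was at 0 in every library. Their part in the marker levels was not tested.

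Levels of the markers were related over the 6 lungs on the log2(FPKM + 1) scale, in 10 pairs. Upk3b and Calb2 fell into separate sets of lungs, so that no pooled correlation is given for their pairs. Wt1 and Lrrn4 had r = 0.88 (exact permutation p = 0.0264, adjusted 0.139) and rho = 0.89 (exact permutation p = 0.0333, adjusted 0.292), and without control 2 and PF model 2 r was 0.92. Wt1 rested on 0 to 17 estimated reads per library in this relation. Under TPM over all transcripts rho was 0.77 (exact permutation p = 0.103, adjusted 0.583). Under TPM over named genes it was 0.71 (exact permutation p = 0.136, adjusted 0.583). Msln had no clear relation to Wt1 (r = 0.10, exact permutation p = 0.826, adjusted 0.918, rho = 0.09, exact permutation p = 0.919, adjusted 1.0) or to Lrrn4 (r = -0.14, exact permutation p = 0.774, adjusted 0.918, rho = 0.09, exact permutation p = 0.919, adjusted 1.0). Without control 1 and PF model 3 these became 0.75 and 0.72, so the values over all lungs rested on those libraries. After adjustment over the 10 pairs, 0 relations passed.

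Of 15 further genes known from mesothelium, 14 were in the table, and Muc16 was not found under that name. None was called (0 of 14, against 1.52% of all genes), 8 were higher and 6 lower in PF model lungs, and the median difference was 0.06. Ezr (ezrin, which ties microvilli to actin) at a mean of 72.5 FPKM and Pdpn (podoplanin, also abundant on alveolar type I cells) at 70.1 FPKM were the most abundant. Both are far from particular to mesothelium in lung, and their differences were 0.07 (adjusted p = 0.936) and 0.06 (adjusted p = 0.980). The remaining genes of this list are named after their values were seen. Nkain4, a small membrane protein that binds the sodium pump, had 6.57, 7.82 and 6.41 FPKM in control 1, 2 and 3 and 8.67, 10.2 and 11.1 FPKM in PF model 1, 2 and 3. Its groups did not overlap, as held for 10.7% of all genes, and the difference was 0.47 (SE 0.13, adjusted p = 0.933) with a ratio of means of 1.44, under the size required for a call, although the unadjusted p was under 0.05. Krt8, a keratin of simple epithelia, was the other gene of the list without overlap (24.7 ± 0.869 and 29.1 ± 4.35 FPKM, SD, n = 3 each, adjusted p = 0.933).

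Of the 14 genes, 5 (Upk1b, Gpm6a, Bnc1, Aldh1a2 and Tbx18) had library 2 as the highest of each group, against 8.39% of all genes. Upk1b, a tetraspanin that pairs with uroplakins, had 0.916, 2.004 and 1.22 FPKM in control 1, 2 and 3 and 0.654, 1.98 and 0.613 FPKM in PF model 1, 2 and 3. Aldh1a2, which makes retinoic acid, had 5.38, 10.9 and 6.98 FPKM in control and 5.79, 10.1 and 4.69 FPKM in PF model lungs. Both shared with Upk3b the highest library of each group, and the order of the other lungs differed. In control 2 the ratio to the other controls was 1.87 for Upk1b, 1.51 for the membrane glycoprotein gene Gpm6a, 3.22 for the transcription factor gene Bnc1, 1.76 for Aldh1a2 and 2.11 for the T-box gene Tbx18. In PF model 2 it was 3.13, 3.07, 7.25, 1.93 and 2.24 in the same order. Rspo1, Cldn15 and Nkain4 had ratios of 1.06, 1.64 and 1.20 in control 2 and 1.25, 1.02 and 1.03 in PF model 2. The keratins, Pdpn and Ezr, which epithelium expresses at far higher levels than the markers, had ratios of 0.832 to 1.12 in control 2 and 0.840 to 1.49 in PF model 2. Over all 14 genes the median ratio was 1.16 and 1.14.

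**Figure D4:**
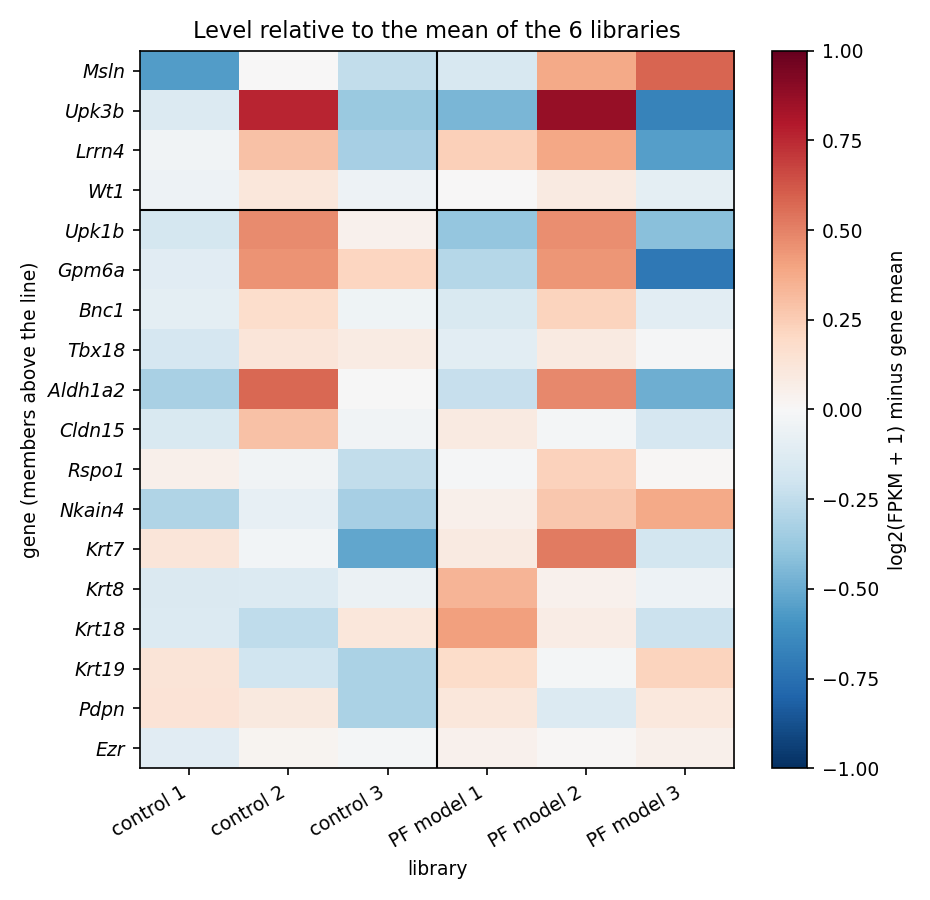
Level of each gene in each library as log2(FPKM + 1) minus the gene's mean over the 6 libraries (red above, blue below), with 4 markers above the horizontal line, 14 further mesothelial genes below it and control left of the vertical line. Upk3b, Upk1b, Gpm6a and Aldh1a2 are red in control 2 and in PF model 2, and Nkain4 and Msln are highest in PF model 3.

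The 5 markers were standardised, so Wt1 and Calb2, with at most 17 estimated reads in a library, weighed as much as the others. Calb2 was above 0 in control 2 alone. The genes whose profile over the 6 lungs was most like the mean of the 5 standardised markers were sought among 14317 genes with a mean of at least 1 FPKM. Pearson's r was at least 0.9 for 60 of them (0.419%). The first 10 were H2afy (r = 0.994), Dkk3 (0.981), AABR07064724.2 (0.978), AABR07066818.1, AABR07029504.1, Ube2l6, AABR07072500.1, AABR07034669.1, Ankrd11 and Ppp2r3b (0.955). Dkk3, a secreted protein of the Dickkopf family, had 2.03, 9.87 and 1.57 FPKM in control 1, 2 and 3 and 2.06, 8.65 and 2.06 FPKM in PF model 1, 2 and 3. H2afy, a histone variant, varied only between 26.4 and 29.3 FPKM. AABR07064724.2 had 15085 FPKM in control 2 and 3513 FPKM in PF model 2, against at most 0.124 FPKM in the other 4, so that this ranking of the lungs was shared with an unnamed locus of extreme values. Of the further mesothelial genes, Aldh1a2 came closest (r = 0.906, rank 55), followed by Upk1b (r = 0.833, rank 147), Cldn15 (r = 0.753) and Gpm6a (r = 0.701). Lower values were found for Krt7 (0.555), Rspo1 (0.463), Ezr (0.362), Nkain4 (0.253) and Pdpn (0.053). Krt8 (-0.052), Krt18 (-0.169) and Krt19 (-0.321, rank 9663) had r below 0. With 6 points per gene such values describe the ranking and are not evidence of common control.

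For single markers the nearest genes differed. They were picked by the highest r among 14317 genes. Genes with r of at least 0.9 numbered from 56 (0.391%, Wt1) to 94 (0.657%, Msln), so these values describe the ranking only. Msln was closest to Tcf21 (r = 0.986), a transcription factor gene of lung fibroblasts, which had 27.3, 32.2 and 30.5 FPKM in control 1, 2 and 3 and 29.7, 36.6 and 37.4 FPKM in PF model 1, 2 and 3, followed by Unc119 (0.981) and Ago1 (0.979). Upk3b was closest to Zeb2, Mutyh and AABR07072853.1. Their r is not given, since control 2 and PF model 2 stood apart from the other lungs in Upk3b. Wt1 was closest to AABR07029504.1 (0.996), Rassf2 (0.977) and Tpcn2 (0.974). Lrrn4 was closest to Mest (0.987), Cops7b (0.978) and Slc25a42 (0.976). Calb2, above 0 in control 2 alone, was matched by AABR07064716.2, Grpel2 and AABR07060726.1, which were high in that library alone.

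Among relatives of the markers (uroplakins, other Lrrn genes, Mslnl, the calcium-binding Calb1 and S100g, the EGR factors, which resemble WT1 in their zinc fingers, and the WT1 partner Wtap), 14 of 16 names were in the table and 11 were tested. None was called, against 1.52% of all genes, 5 were higher and 6 lower, and the median difference was -0.01. Wtap (mean 22.1 FPKM) and Egr1 (20.6 FPKM) were the most abundant, with differences of -0.11 (adjusted p = 0.933) and 0.01 (adjusted p = 0.999). The following were chosen after their values were seen. Mslnl, which lies 479 bases from Msln, stayed at 0.263 to 0.425 FPKM. Calb1, the closest relative of Calb2, was above 0 in control 3 alone (0.188 FPKM), while S100g, the vitamin D-dependent calbindin of the gut, had 17.4, 13.3 and 24.0 FPKM in control 1, 2 and 3 and 3.81, 12.7 and 12.5 FPKM in PF model 1, 2 and 3. Its groups did not overlap, as held for 10.7% of all genes, and the difference was -0.96 (SE 0.44, adjusted p = 0.933). Egr2 also showed no overlap, in the other direction, with 1.33 ± 0.0275 FPKM in control and 1.97 ± 0.408 FPKM in PF model lungs (SD, n = 3 each, difference 0.34, adjusted p = 0.933), and it was the only relative with an unadjusted p under 0.05. The uroplakins other than Upk3b and Upk1b were low. Upk3a and Upk1a had means of 0.134 and 0.234 FPKM, and Upk2 and Upk3bl1 were above 0 in 2 libraries each.

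A further list held 16 genes for matrix, contractile proteins and the change of mesothelial cells towards fibroblasts. Of these 0 were called (1.52% of all genes), 11 were higher and 5 lower, with a median difference of 0.13. In RNA from whole tissue the cells that made these RNAs cannot be told apart, so no transition of mesothelial cells was measured. Col3a1, a fibrillar collagen, was at 169 ± 13.1 FPKM in control and 208 ± 22.3 FPKM in PF model lungs (SD, n = 3 each, difference 0.30, adjusted p = 0.933). Vim, vimentin, which mesothelial cells and fibroblasts share, was at 145 ± 14.9 and 173 ± 9.96 FPKM (difference 0.25, adjusted p = 0.933). For both genes every PF model lung exceeded every control lung, and both passed an unadjusted p of 0.05, but the ratio of means was under the size required for a call. Lox, a collagen cross-linking enzyme chosen after its values were seen, was the other gene of the 16 without overlap, as held for 10.7% of all genes, and it was lower in PF model lungs (16.3 ± 1.03 and 14.1 ± 1.17 FPKM, SD, n = 3 each, difference -0.20, adjusted p = 0.933). Timp1, Snai1, Snai2 and Cdh2 also had differences below 0.

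Genes of other cells that the specimens could hold were examined next. Of 10 neuron and neuroendocrine genes (neurons also make calretinin), 9 were tested and 1 was called, against 1.52% of all genes. This was Calca, which was lower in PF model lungs (0.274 ± 0.188 and 0.0451 ± 0.0782 FPKM, SD, n = 3 each, adjusted p = 0.933), from 0 to 20 estimated reads per library. It was called under 10 of 21 alternatives, and not without control 2, control 3, PF model 1 or PF model 3. Their summed level was 1.88 to 4.28 FPKM in control and 1.87 to 3.42 FPKM in PF model lungs. Of 4 podocyte genes found, the kidney cells that share Wt1, 0 were called, and Nphs1, the defining one, did not exceed 0.129 FPKM. Podxl (46.5 FPKM) and Synpo (13.6 FPKM), the most abundant ones, are also made in other cells. Of 5 adipocyte genes 0 were called, and their sum was 0.625 to 0.707 FPKM in control and 0.959 to 1.64 FPKM in PF model lungs. Cidec made up most of this sum except in PF model 3, where Cidec had 0.688 FPKM and Plin1 had 0.595 FPKM. Adipoq, the defining one, was listed at 0 in all controls and in PF model 2. Of the 4 cardiac markers tested 1 was called, against 1.52% of all genes, namely Nppa, which was higher in PF model lungs (0.0357 ± 0.0619 and 0.157 ± 0.00914 FPKM, SD, n = 3 each, adjusted p = 0.933), from 0 to 7 estimated reads per library. It was called under 13 of 21 alternatives, and when a single library was left out its call held only without control 1. Of the airway genes (5 found, led by Scgb1a1 and Scgb3a2) and the 9 alveolar genes (led by Sftpc and Sftpa1) 0 were called, and the differences of all 9 alveolar genes were above 0, with a median of 0.25 and none past the test. The part of these cells in the marker levels was not tested.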

How the data were processed

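Per the labels and the study's methods, rRNA was removed from the total RNA of each lung before paired sequencing (read length 150 bases). The submitters' processing notes name HISAT2, TopHat and StringTie. The authors assembled and merged transcripts, and deposited FPKM per transcript estimated with StringTie and Ballgown. The authors also deposited the coverage per transcript, a signal not scaled for depth, and circRNA counts of back-splice reads, used here only to look for host genes. The 6 columns of a scaled circRNA signal were not used. The study's methods give Bowtie2 and Tophat2 at default settings for mapping, whereas the genome build is not given in the sources used here, and columns of the authors' own comparisons were not used.

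The FPKM were summed per gene name. Genes above 0 in at least 3 of 6 libraries were compared with limma 3.58.1 (lmFit, eBayes with trend, R 4.3.3) on log2(FPKM + 1), two-sided, with p-values adjusted by Benjamini-Hochberg over all 19645 genes or 64867 transcripts. A gene was called at an unadjusted p of up to 0.05 with mean FPKM that differed by 1 log2 unit or more, the thresholds of the study's methods. Single values and correlations were tested with exact permutation tests (scipy 1.17.1). Reads were estimated as coverage times length divided by read length, and they cover counting only. The fit was tried on simulated data, with planted changes larger than the differences of the marker genes and only in genes above a set level. That trial does not show how well differences of the size seen in the markers would be found. Groups came from the labels, and the dose, day and age from the methods.

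The 5 members and the further lists were chosen with earlier results of these data known. Named from each further list were the genes called or otherwise the pair with the highest mean FPKM, and by likeness the 10 genes nearest to the mean of the markers and the 3 nearest to each. Tables and figures were made with pandas 2.3.3, matplotlib 3.10.9 and numpy 2.4.6 under Python 3.11.15. The alternatives were other pseudocounts, filters, scalings, sums and variance settings, a replicate block and leaving out each library. Leaving out control 2 and PF model 2 together was chosen after seeing the data.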

Additional observations from a re-analysis of the deposited data

How the results depend on the processing

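Under 21 alternatives 0 markers were called, and Msln stayed higher in PF model lungs in all 21, between 0.38 and 1.46, with an unadjusted p at most 0.05 in 5 and an adjusted p of at least 0.820. Counting annotated transcripts alone gave 1.46 for Msln (adjusted p = 0.972). Leaving out 1 library at a time gave 0.38 to 0.75 for Msln, -0.64 to 0.17 for Upk3b, -0.13 to 0.34 for Lrrn4 and -0.052 to 0.047 for Wt1, so the sign of the last 3 was not stable, and the cause was not tested. The same ranges by transcript were 0.93 to 2.15 (ENSRNOT00000026395), -1.28 to -0.19 (MSTRG.4921.2), -0.48 to 0.15 (MSTRG.8947.1), -0.49 to 0.16 (ENSRNOT00000037639), -0.052 to 0.047 (ENSRNOT00000067940) and -0.13 to 0.34 (ENSRNOT00000040802). Wt1, gene and transcript, turned sign at 0.00065 under TPM over all transcripts, and the gene at 0.0020 without control 2 and PF model 2. It had no value where a mean of 1 FPKM was required, and Calb2 had one only without a filter. Msln and Wt1 had r = -0.072 under TPM over named genes, and Msln and Lrrn4 r = 0.72 without the libraries farthest from the median. Leaving out 1 library gave 0 to 1 calls among the further mesothelial genes (Gpm6a, without PF model 2) and 0 to 1 among relatives of the markers (S100g, without PF model 2 or PF model 3). Over all genes 396 of 19334 were called without PF model 2 and 309 of 19342 without PF model 3. Without control 2 and PF model 2 the relatives had 1 call (Egr3), against 373 of 18895 over all genes. Over all genes the 298 calls became 84 with a mean of at least 1 FPKM required, 519 with annotated transcripts alone and 594 with sums per gene identifier.

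The labels do not pair the lungs by replicate number. Deviations from the group means correlated at 0.06, 0.03 and -0.08 between lungs of the same number, and at -0.13 to 0.10 between others. Such correlations over many genes cannot show a property that few genes share, and this was not tested. With the number as a replicate block, Msln had a difference of 0.53 (limma, unadjusted p = 0.022, adjusted p = 0.924). Upk3b had -0.17 (limma, unadjusted p = 0.335, adjusted p = 0.924). Without the block the unadjusted limma p was 0.063 for Msln and 0.737 for Upk3b. With it 0 markers were called, and all genes gave 312 calls. Depth limits Wt1 and Calb2, which rest on at most 17 estimated reads in a library.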
